A study of Mus musculus with 24 samples.

Results

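The genes described here are the cytochromes P450 of families Cyp2, Cyp3 and Cyp4 other than the Cyp2c subfamily, Cyp4a14 and Cyp4a31. They were chosen by symbol alone. Every gene whose symbol was Cyp2, Cyp3 or Cyp4 followed by a letter, and which had a probe set carrying that symbol only, was taken. This gave 52 genes of the 18820 with such a probe set, of which 33 belonged to Cyp2, 6 to Cyp3 and 13 to Cyp4. Each of the 52 had 1 such probe set. Probe sets carrying several symbols were not used, among them 1 shared by Cyp2a5 and Cyp2a4 and 1 shared by Cyp4v3 and Klkb1. Near-identical genes may also cross-hybridise, so that values of Cyp4a12a and Cyp4a12b, of Cyp3a11 and Cyp3a44, and within the Cyp2b and Cyp2d subfamilies cannot be fully assigned to 1 gene.

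Cytochromes P450 are haem enzymes of the endoplasmic reticulum that insert oxygen into lipophilic substrates with electrons from P450 reductase. The Cyp2 and Cyp3 families oxidise drugs, plant compounds and steroids in liver and in the absorptive cells of the small intestine, and many are induced through the receptors CAR (Nr1i3) and PXR (Nr1i2). The Cyp4 family mainly hydroxylates fatty acids and eicosanoids at the end of the chain. Several mouse members also follow the sex of the animal through growth hormone.

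The series compared male mice lacking caspase-1 (Casp1-null) with wild-type C57BL/6J males, in liver and in the epithelium scraped from duodenum, jejunum and ileum. Caspase-1 cleaves cytokine precursors in inflammasomes, and the question of the series is its part in the secretion of triglyceride-rich lipoproteins. Each tissue had 3 wild-type and 3 Casp1-null arrays, 24 in 8 groups. All mice ate chow and were aged from 14 to 16 weeks. The liver groups were fasted for 16 h. The intestinal groups were fasted overnight, given 200 µL olive oil into the stomach and sampled 2 h afterwards. The null allele had been backcrossed to C57BL/6 for 10 generations, and no littermate controls are named, so caspase-1 loss and remaining strain differences cannot be told apart. The labels do not say whether each array was 1 mouse, and p-values measure the spread between these samples only.

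Values are log2 expression per probe set. They can be compared between samples for 1 gene, but not between genes, because probe sets differ in brightness. Pearson's r between arrays of 1 group was 0.9787 to 0.9926 over all probe sets, which are not replicates of each other. Casp1 itself lay between 8.26 and 9.95 on the 9 wild-type intestinal arrays and between 5.82 and 7.80 on the 9 Casp1-null ones. In liver it was low in both genotypes, 4.22 to 4.60 in wild type and 3.80 to 4.27 in Casp1-null, so it did not check the liver labels. The means of 8 hepatocyte markers (13.0 to 13.1 in liver, 4.99 to 5.91 in intestine) and of 8 measured enterocyte markers (11.4 to 12.9 in intestine, 6.95 to 7.58 in liver) matched the labelled tissues. Wild-type duodenum array 1 stood apart in exocrine pancreas markers (mean 10.4 against 4.80 to 5.17 on the other intestinal arrays), and wild-type ileum array 2 and Casp1-null ileum array 3 in smooth muscle and stroma markers (8.69 and 8.32 against 4.26 to 5.41 on the other intestinal arrays).

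Signal was read as not shown above background where a group's mean fell below every array median of that organ (the lowest being 4.874 in intestine and 5.187 in liver). By this reading 20 members were above background in liver and in at least 1 intestinal group, 10 in liver only, 3 in intestine only and 19 nowhere. In wild type, 30 of the 52 members were above it in liver, 20 in duodenum, 19 in jejunum and 21 in ileum. Of all genes, 56.1%, 55.9%, 56.1% and 57.2% were above it in the same order. The 19 members above it nowhere had group means from 2.54 to 5.04 and included Cyp2g1, known from olfactory tissue, and Cyp2b13, a female-predominant liver gene.

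Most members differed between wild-type liver and wild-type intestine. Of 52 members, 37 differed between liver and the average of the 3 segments at an adjusted p under 0.05 (limma, Benjamini-Hochberg over all probe sets), 26 higher and 11 lower in liver. Of the 26 members higher in liver, 4 were above background in neither organ, and of the 11 lower also 4. Most genes differed in this comparison: 70.1% of all genes tested were called, 39% higher and 31.1% lower in liver. The median difference of the members was 0.27, against 0.06 for all genes. The organs also differed in fasting and oil load, which cannot be told apart from the organ here.

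Among members higher in liver were 5 Cyp2 genes whose average over the wild-type segments was not above background. Cyp2e1 (Gene ID 13106), which oxidises ethanol and paracetamol, read 13.24, 13.12 and 13.26 on the 3 wild-type liver arrays. Its average over the wild-type segments was not above background, and liver was at least 322-fold higher than that average (adjusted p = 2.78e-06). The wild-type ileal mean of Cyp2e1, 5.62, was above background, with array 2 at 9.76, so the bound does not hold for ileum alone. Cyp2f2, known for activating naphthalene, was at least 273-fold higher in liver, where it read 13.00, 12.92 and 12.98, and none of its wild-type intestinal group means was above background. Cyp2a5, the coumarin hydroxylase, was at least 141-fold higher in liver. Cyp2j5, an arachidonic acid epoxygenase, was at least 137-fold higher and Cyp2a12, a steroid hydroxylase, at least 133-fold higher. No liver array of these 5 genes overlapped a wild-type intestinal array.

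Of the 10 Cyp2d members, 9 were called higher in liver and none lower. Among the 9, Cyp2d11 and Cyp2d34 were not above background in either organ. The call of Cyp2d11 was lost with median centring or repeated quantile normalization. Cyp2d9, a male-specific testosterone hydroxylase, read 11.20, 11.06 and 11.35 in wild-type liver and was at least 80.3-fold above intestine. Cyp2d13 was at least 84.0-fold higher and Cyp2d10 at least 37.9-fold higher. Cyp2d22 and Cyp2d26 were above background in both organs and differed less, by 5.22-fold and 2.21-fold. Both male-typical Cyp4a members followed the liver pattern as well. Cyp4a12a, a male-specific arachidonic acid hydroxylase, was at least 146-fold higher in liver and Cyp4a12b at least 134-fold higher. Cyp2r1, which hydroxylates vitamin D at the first step of its activation, was 10.4-fold higher in liver and Cyp2u1, a fatty acid hydroxylase, 4.82-fold higher.

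A smaller group was higher in intestine. Cyp4f16 (Gene ID 70101) had a wild-type mean of 5.86 in liver and of 11.1 over the segments, 36.5-fold higher in intestine. Cyp4f40 was at least 21.4-fold higher in intestine, and Cyp2s1, a P450 known from epithelia, was 16.8-fold higher. Cyp2b10 (Gene ID 13088), the textbook CAR target, was 14.0-fold higher in the average of the segments, although its wild-type ileal mean of 6.23 was close to the liver mean of 6.19 and duodenum (12.1) and jejunum (11.7) were far above both. Smaller differences on the same side were those of Cyp4b1 (4.02-fold), which activates aromatic amines and furans, Cyp3a13 (3.20-fold) and Cyp4f14 (2.32-fold). The split between organs moved with the scaling. With array medians set equal, the median difference of all genes became -0.21 and 23 members were called higher and 22 lower in liver, and with quantile normalization repeated the split was 24 and 14.

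**Figure D1:**
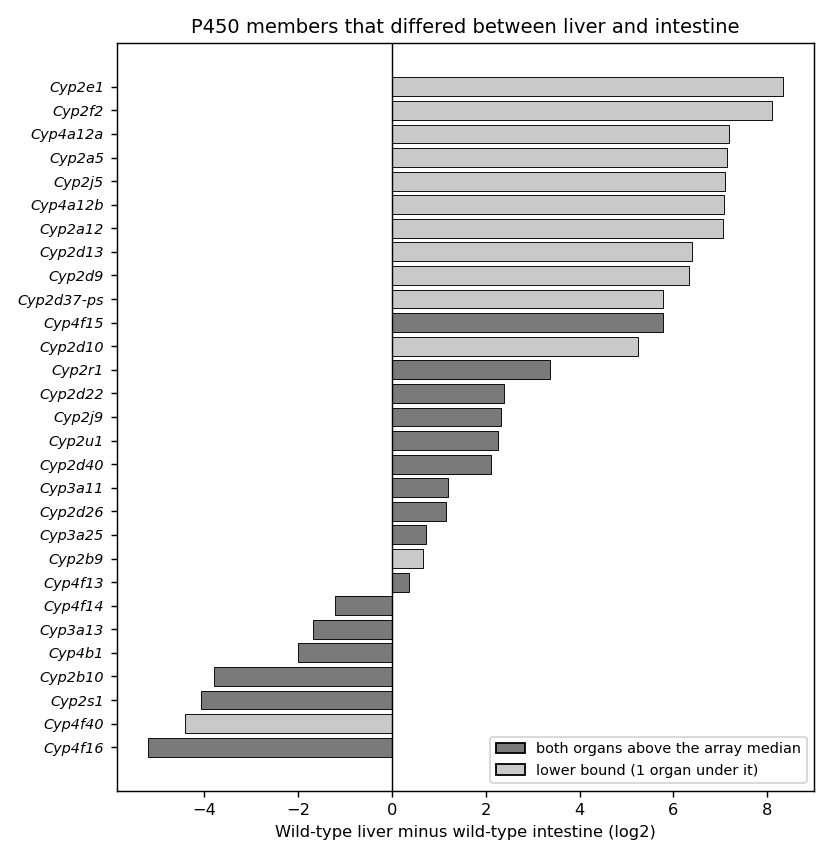
Difference between wild-type liver and the mean of the 3 wild-type intestinal segments (log2) for the members called in that comparison, leaving out those not above background in both organs. Dark bars are measured differences and light bars are lower bounds; Cyp2e1 lies at the liver end and Cyp4f16 at the intestinal end.

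Among the 9 Cyp4f members the organs split the subfamily, with 2 called higher and 5 lower in liver. Of those called lower, Cyp4f37 and Cyp4f41-ps were not above background in either organ. Cyp4f15 (Gene ID 106648) was 54.5-fold higher in wild-type liver, where it read 10.90, 10.82 and 10.85. Cyp4f40, next to it on the chromosome, and Cyp4f16, further off in the same cluster, were higher in intestine. In the RefSeq gene order of mouse chromosome 17, Cyp4f39, Cyp4f17, Cyp4f16, Cyp4f37, Cyp4f38-ps, Cyp4f40, Cyp4f15, Cyp4f14, Cyp4f13 and Cyp4f41-ps follow each other. Cyp4f13, between 9.73 and 10.7 on all 24 arrays, was 1.30-fold higher in liver, a call lost with median centring (adjusted p = 0.487) and without wild-type liver array 3 (0.0534).

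Some members were above background in both organs, among them 4 of the 6 measured Cyp3a genes, a main drug-oxidising subfamily of liver and gut. Cyp3a16 and Cyp3a57 were above it in neither organ. Cyp3a11 (Gene ID 13112), the main mouse counterpart of the human CYP3A drug enzymes, had wild-type means of 12.5 in liver, 12.5 in duodenum, 12.0 in jejunum and 9.29 in ileum. Cyp3a25 had means of 12.3, 12.2, 11.6 and 10.9 in the same order, and Cyp3a13 means of 10.4, 12.6, 12.2 and 11.5. Cyp2d26 had means of 13.0, 12.8, 12.3 and 10.6, and Cyp4f14, known for hydroxylating leukotrienes and vitamin E, of 11.1, 12.2, 12.5 and 12.1. Ileum was the lowest intestinal segment for Cyp3a11, Cyp3a25, Cyp3a13 and Cyp2d26, and Cyp4f14 did not pass the test between any segments.

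Along the wild-type small intestine, most members that changed fell from duodenum to ileum. Of 52, 23 were lower in ileum than in duodenum and 2 were higher, against 13.2% of all genes lower and 14.7% higher (27.9% in either direction). The median difference was -0.31 for the members and -0.05 for all genes. The fall took in 5 of 6 Cyp3a members, 7 of 10 Cyp2d, 4 of 6 Cyp2j, 3 of 5 Cyp2b and 2 of 9 Cyp4f. For 13 of the 23 both segments were above background, for 1 the difference is a lower bound, and for 9 neither segment was above background and no size is given. Between neighbouring segments, 6 members differed from duodenum to jejunum (7.76% of all genes) and 12 from jejunum to ileum (15.4% of all genes). The first step had 2 members higher and 4 lower (3.37% and 4.38% of all genes), and the second 2 higher and 10 lower (8.7% and 6.74%).

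Promoter sequences are shown for the 2 members with the largest measured falls and for Cyp4f40, which rose along the same axis. They are the 250 bases before the start in the RefSeq promoter table, GRCm38.p6, given 5′ to 3′ on the gene's strand. Capitals mark AGGTCA, the half-site of nuclear receptors such as PXR and HNF4, or a GATA site, AGATAA or TGATAA, on either strand. Cyp2b10 is at chr7:25897408-25897657 on the plus strand and held neither. Cyp3a11 is at chr5:145879855-145880104 on the minus strand and held 1 AGGTCA. Cyp4f40, at its first listed start, is at chr17:32658636-32658885 on the plus strand and held 1 GATA site.
Cyp2b10: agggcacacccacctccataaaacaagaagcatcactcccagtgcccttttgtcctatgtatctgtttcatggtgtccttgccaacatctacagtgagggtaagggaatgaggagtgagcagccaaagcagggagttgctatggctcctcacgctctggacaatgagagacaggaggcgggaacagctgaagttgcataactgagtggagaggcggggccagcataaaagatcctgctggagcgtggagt
Cyp3a11: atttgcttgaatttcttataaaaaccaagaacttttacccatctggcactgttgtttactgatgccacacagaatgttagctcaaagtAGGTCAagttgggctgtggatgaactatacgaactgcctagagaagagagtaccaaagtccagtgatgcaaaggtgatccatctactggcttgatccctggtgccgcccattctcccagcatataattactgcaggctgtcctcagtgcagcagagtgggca
Cyp4f40: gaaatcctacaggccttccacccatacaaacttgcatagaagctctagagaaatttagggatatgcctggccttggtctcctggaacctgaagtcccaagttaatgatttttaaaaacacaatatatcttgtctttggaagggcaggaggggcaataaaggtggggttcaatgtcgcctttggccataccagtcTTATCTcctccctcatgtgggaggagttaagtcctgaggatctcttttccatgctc
Over windows of 250 bases before and 50 after the start, 41 of the 52 members had an entry. AGGTCA was found in 13 of the 41 and in 16.3% of all 32851 promoters in the table. GATA sites were found in 9 of the 41 and in 18.6% of all promoters. The letters TATAAA were found in 13 of the 41 and in 13.6% of all promoters. Of the 21 members with an entry that were lower in ileum, 8 held AGGTCA and 5 a GATA site, against 5 and 4 of the other 20. A longer HNF4 motif, CAAAGTCCA, was found in 2 of the 41 and in 0.475% of all promoters. These counts are of letters in short windows, and the motifs were not tested for use.

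Cyp2b10 had the largest fall. It read 12.23, 12.16 and 11.81 in wild-type duodenum, 11.85, 11.55 and 11.62 in jejunum and 7.01, 5.12 and 6.54 in ileum. Duodenum and jejunum overlapped, and every ileal array lay far below both. Ileum was 57.3-fold below duodenum (log2 difference -5.84, SE 0.415; adjusted p = 1.32e-07) and 43.7-fold below jejunum (adjusted p = 9.40e-07).

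Cyp3a11 followed the same course with a smaller step. Its arrays read 12.51, 12.40 and 12.71 in duodenum, 12.04, 12.18 and 11.85 in jejunum and 9.41, 8.67 and 9.78 in ileum. No ileal array overlapped the other segments, and ileum was 9.53-fold below duodenum (-3.25, SE 0.358; adjusted p = 1.01e-05). Cyp2d26 read 12.91, 12.84 and 12.65 in duodenum and 10.90, 10.07 and 10.86 in ileum, a fall of 4.57-fold (adjusted p = 3.16e-06). Cyp2d22, the closest mouse counterpart of the human CYP2D drug enzyme, was 3.50-fold lower in ileum, Cyp4b1 3.30-fold lower and Cyp3a44 3.27-fold lower. Cyp3a13 and Cyp3a25 fell by less, 2.04-fold and 2.38-fold.

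Cyp2r1 was at least 2.67-fold lower in jejunum than in duodenum (adjusted p = 3.36e-05) and did not pass the test between jejunum and ileum. Cyp3a44 was 2.55-fold lower in jejunum than in duodenum (adjusted p = 0.0232), a call lost without wild-type duodenum array 1 or 3 (adjusted p = 0.0888 and 0.0763) or any 1 wild-type jejunal array (0.0519, 0.0548 and 0.0910), and without the 3 arrays high in pancreas or stroma markers (0.0825). Neither step between neighbouring segments was called for Cyp2j6 and Cyp2j9. From duodenum to ileum Cyp2j6 was 2.36-fold lower and Cyp2j9 2.76-fold lower; the Cyp2j9 call was lost without duodenum array 1 or 2 or ileum array 1 or 3 (log2 differences from -1.40 to -1.07). Wild-type duodenum array 3 was the lowest of its group for both, at 10.24 for Cyp2j6 and 5.74 for Cyp2j9, and the Cyp2j9 value lay close to that of ileum array 2, at 5.71. Cyp4f15 was at least 1.96-fold lower in ileum and in jejunum than in duodenum, and the jejunal call was lost without the 3 arrays high in pancreas or stroma markers (adjusted p = 0.0516).

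Cyp2u1 and Cyp4f40 ran the other way. Cyp4f40 read 8.81, 9.02 and 8.90 in wild-type duodenum, 9.58, 9.78 and 9.71 in jejunum and 10.24, 10.24 and 10.16 in ileum. The 3 segments did not overlap, and each step passed the test, 1.72-fold up to jejunum (adjusted p = 0.000572) and 1.44-fold up to ileum (adjusted p = 0.00585). Cyp2u1 read 5.44, 6.26 and 5.18 in duodenum, 7.36, 6.71 and 7.98 in jejunum and 8.07, 7.47 and 8.54 in ileum. Its ileum was 5.28-fold above duodenum (adjusted p = 0.000253), with jejunum overlapping ileum. Cyp2s1 and Cyp4f13 did not pass the test between duodenum and ileum.

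**Figure D2:**
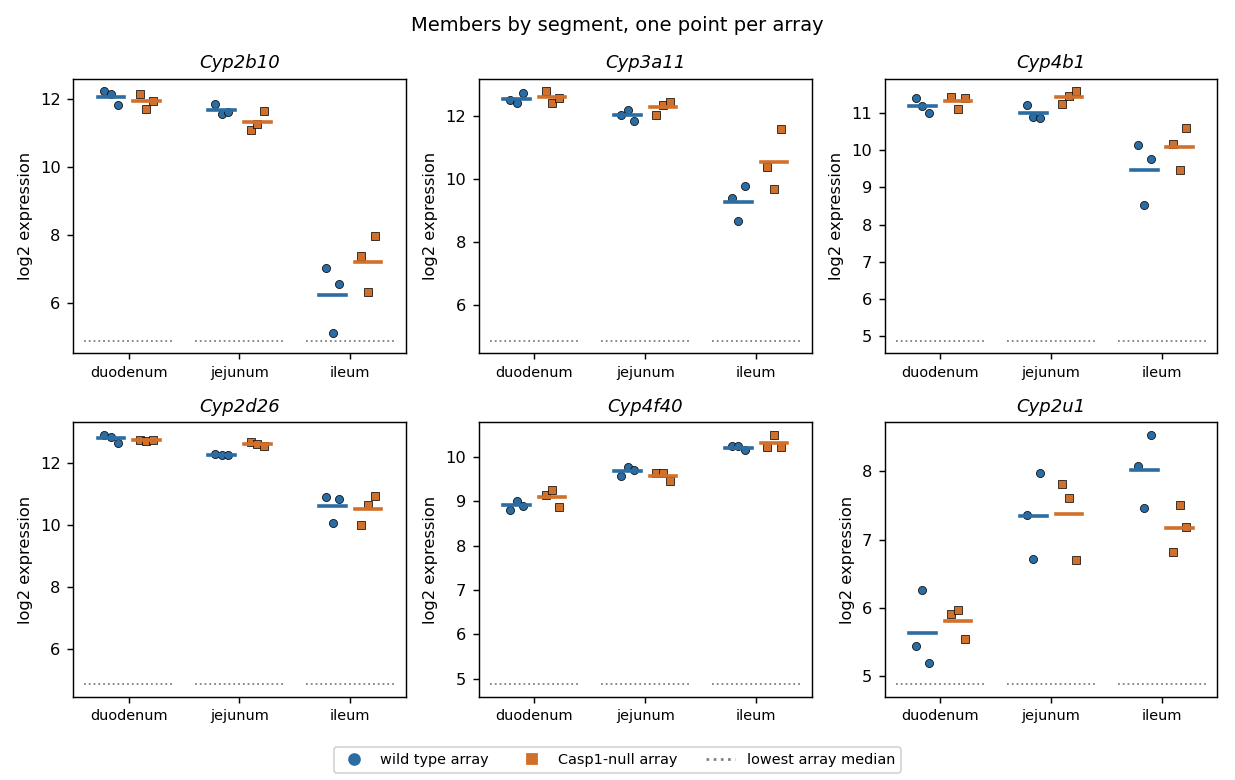
Log2 expression of 6 members on each of the 18 intestinal arrays, by segment (horizontal axis) and genotype, with bars at group means and a dotted line at the lowest array median. Cyp2b10, Cyp3a11, Cyp4b1 and Cyp2d26 drop in ileum in both genotypes, while Cyp4f40 and Cyp2u1 rise.

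Enterocyte markers also differed along the axis. Their mean lay from 12.7 to 12.8 in wild-type duodenum and from 11.4 to 12.0 in wild-type ileum. The list includes Lct, also used here as a proximal intestine marker, so its mean does not measure enterocyte number alone. Distal markers were high in ileum (12.1 to 12.3 in wild type) and lower in duodenum (7.82 to 8.18), as the labels say. Array 2 of wild-type ileum, high in stroma markers, was the lowest wild-type ileal array for Cyp2b10, Cyp3a11, Cyp4b1 and Cyp2d26. Without it, wild-type duodenum array 1 and Casp1-null ileum array 3, 16 members in place of 25 were called. Cyp2b10 then fell by 5.21, Cyp3a11 by 2.96 and Cyp4b1 by 1.15 on the log2 scale, each still called, while Cyp2j6 (adjusted p = 0.0555) and Cyp2j9 (adjusted p = 0.0888) were not.

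In Casp1-null mice only ileum and duodenum were compared. All 23 members that were lower in wild-type ileum had a lower mean in Casp1-null ileum than duodenum, and 19 of them passed the test there. In Casp1-null mice 22 members were called lower and 3 higher in ileum, against 10.2% and 10.8% of all genes. Cyp2b10 fell by 4.72 (SE 0.415), Cyp3a11 by 2.04 (SE 0.358) and Cyp2d26 by 2.21 (SE 0.213), and Cyp4f40 rose by 1.23 (SE 0.112). No member passed the test of whether the genotype difference varied between segments, where 0.117% of all genes did (limma; 5 members had an unadjusted p under 0.05).

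**Figure D3:**
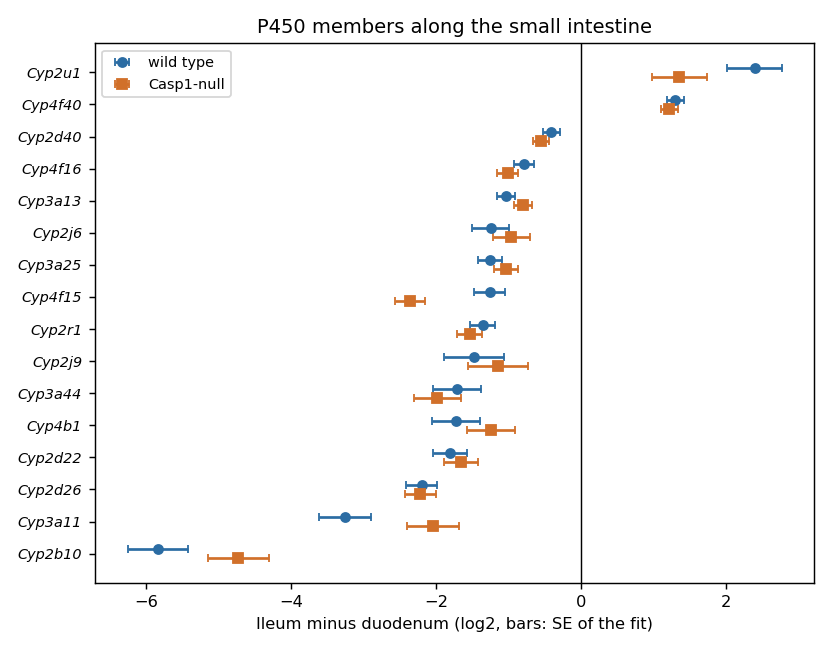
Ileum minus duodenum (log2, horizontal axis, with the standard error of the fit) in wild-type (circles) and Casp1-null mice (squares) for members called in wild type and above background in at least 1 segment. Every member but Cyp4f40 and Cyp2u1 lies below 0 in both genotypes. The ileal means of Cyp4f15 and the Casp1-null ileal mean of Cyp2r1 were not above background, so those values are not a measured size.

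Genes from lists chosen for P450 biology were counted along the same axis, where 13.2% of all genes were lower and 14.7% higher in ileum. Of 18 measured non-P450 targets of CAR and PXR, 14 were lower and 1 was higher in wild-type ileum, with a median difference of -1.32. Of 20 receptors and transcription factors, 12 were lower and 1 was higher (median -0.60), and of 13 electron donors and haem synthesis genes 10 were lower and 1 was higher (median -0.79). Of 11 growth hormone and sex-steroid signalling genes, 2 were lower and 2 higher (median -0.11), of 5 Cyp1 and Ah receptor targets 2 were lower and none was higher (median -0.49), and of 18 PPAR-alpha targets 10 were lower and 2 higher (median -0.43). Nr1i2, which encodes PXR, had wild-type means of 11.1 in duodenum, 11.0 in jejunum and 10.2 in ileum, a difference of -0.85 from duodenum to ileum (adjusted p = 6.04e-05). Ahr, the dioxin receptor, differed by -1.46. Hnf4a, a general activator of liver and gut P450 genes, had means of 12.1 in duodenum and 12.2 in ileum and did not pass the test. The genes for CAR and for P450 reductase had no probe set of their own here and were not analysed.

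Between genotypes, at most 2 of the 52 members passed the test in any tissue. In liver 1 of 52 was called, against 0.925% of all genes; it was lower, as were 0.526% of all genes, while 0.399% were higher. In duodenum 2 were called, both higher (1.21% of all genes, 0.6% higher and 0.606% lower). In jejunum 2 were called, both lower (2.06% of all genes, 1.06% higher and 0.999% lower). In ileum limma called 0 members (0.893% of all genes, 0.42% higher and 0.473% lower). Before adjustment 11, 5, 9 and 5 members had a p under 0.05 in the same order, against 12.8%, 13%, 12.9% and 6.9% of all genes. The median difference of the members lay between -0.061 and -0.0033 in each tissue. Casp1-null arrays lay wholly above wild type for 7 members and wholly below for 10 in liver, against 8.96% and 11.1% of all genes. The counts were 3 above and 6 below in duodenum (11.6% and 11.1%), 4 and 11 in jejunum (10.3% and 9.24%) and 0 and 2 in ileum (4.49% and 4.74%).

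Markers of other cells also separated the genotypes. In duodenum 4 of 10 marker lists had every Casp1-null mean above wild type: stroma (4.80 to 4.998 against 4.35 to 4.51), endothelium (4.28 to 4.81 against 3.98 to 4.12), B and plasma cells (5.95 to 6.32 against 5.36 to 5.51) and myeloid cells (5.92 to 6.80 against 5.52 to 5.70). Hepatocyte markers there were lower (5.31 to 5.38 against 5.38 to 5.91). In jejunum myeloid markers (6.17 to 7.10 against 5.77 to 6.11) and hepatocyte markers (5.40 to 5.45 against 5.22 to 5.37) were higher. In liver 5 of 10 lists were wholly lower in Casp1-null mice: distal intestine (4.58 to 4.88 against 5.76 to 6.22), enterocyte (6.95 to 7.10 against 7.19 to 7.58), endothelium (7.60 to 7.93 against 8.08 to 8.13), B and plasma cells (4.84 to 4.92 against 5.29 to 5.73) and T and NK cells (4.51 to 4.67 against 4.73 to 5.02). Their part in the genotype results was not tested.

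Cyp4f15 was the member called with a measured size in duodenum. It read 6.37, 5.94 and 5.23 in wild type and 6.87, 6.96 and 7.30 in Casp1-null duodenum. The groups did not overlap, and Casp1-null was 2.29-fold higher (log2 difference 1.20, SE 0.209; adjusted p = 0.00870). The lowest wild-type array lay close to background, and the call was lost without Casp1-null array 3 (adjusted p = 0.0594) and when duodenum was fitted on its own 6 arrays (adjusted p = 0.144). In liver, where Cyp4f15 was far higher, Casp1-null arrays read 10.93, 11.10 and 11.00 against 10.90, 10.82 and 10.85, and the difference did not pass the test. In ileum neither genotype was above background.

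Cyp4f16, of the same gene cluster on chromosome 17, was lower in Casp1-null jejunum. Wild type read 11.37, 11.36 and 11.07 and Casp1-null 10.50, 10.59 and 10.46, with no overlap. The difference was -0.75 (SE 0.143; adjusted p = 0.0128), or 1.68-fold. It was not called without Casp1-null array 3, wild-type array 1 or wild-type array 2 (adjusted p = 0.0584, 0.0720 and 0.0650) or on the 6 jejunal arrays alone (0.0525). In duodenum the genotypes overlapped, with wild type at 11.34 ± 0.0517 and Casp1-null mice at 11.33 ± 0.187 (mean ± SD, n = 3). In ileum they overlapped as well.

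The other 3 called members lay at background in both groups and are given with no size. Cyp2a12 in duodenum read 2.59, 2.64 and 2.39 in wild type and 6.49, 4.18 and 3.94 in Casp1-null (adjusted p = 0.0148), so 1 Casp1-null array was above background. The call was lost without wild-type array 2 or 3 (adjusted p = 0.0541 and 0.0674). Cyp2a5 in jejunum (adjusted p = 0.0421) was lost without any 1 of the 6 jejunal arrays. Cyp4f18 in liver (adjusted p = 0.0399), known from neutrophils as a leukotriene hydroxylase, was lost without 5 of the 6 liver arrays.

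Cyp2d22 (Gene ID 56448) was lower in Casp1-null mice in every tissue by its mean, though no single tissue passed the test. In liver it read 11.95, 11.93 and 11.96 in wild type and 11.57, 11.41 and 11.29 in Casp1-null. In duodenum it read 10.15, 10.33 and 10.17 against 9.52, 9.23 and 9.16, and in jejunum 10.19, 10.09 and 9.92 against 9.52, 9.54 and 9.49. The genotypes did not overlap in these 3 tissues, in each of which 2 or more of the marker lists above separated them as well. In ileum, with 8.78, 8.01 and 8.42 against 7.01, 7.76 and 8.19, they did.

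The Cyp2d22 differences were -0.52 in liver (adjusted p = 0.0955), -0.91 in duodenum (0.0911), -0.55 in jejunum (0.371) and -0.75 in ileum (0.289). Averaged over the 3 segments by replicate number, a fit added after the values were seen that treats a number as a mouse, the difference was -0.74 (SE 0.0967; adjusted p = 0.0151), or 1.67-fold. In that fit 2 members were called, Cyp2d22 lower and Cyp4f15 higher by 0.49 (adjusted p = 0.0404), and 2.07% of all genes. Leaving out the 3 arrays high in pancreas or stroma markers was decided after seeing the data and took an array from each ileal group. Cyp2d22 was then called lower in duodenum (-0.95, adjusted p = 0.0441) and in ileum (-1.22, adjusted p = 0.0302). It was called by 2 of 16 alternatives in duodenum, 2 of 13 in liver and 0 of 16 in jejunum. With 1 array left out at a time, the adjusted p reached 0.298 in duodenum and 0.287 in liver.

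Cyp2b10 read 6.17, 6.33 and 6.06 in wild-type liver and 6.70, 9.16 and 8.78 in Casp1-null liver. The groups did not overlap, but Casp1-null array 1 lay near wild type and the difference of 2.02 (SE 0.596; adjusted p = 0.246) did not pass the test. Without that array it was 2.78 (adjusted p = 0.00290), the only 1 of 13 alternatives that called it. With 1 array left out at a time, the difference ran from 1.55 to 2.78 and the adjusted p reached 0.496. Cyp2b9 (Gene ID 13094), a female-predominant steroid hydroxylase, read 6.22, 5.41 and 4.96 in wild-type liver and 3.80, 4.26 and 3.66 in Casp1-null liver. The groups did not overlap, but Casp1-null liver was not above background, so that wild type was at least 1.27-fold higher, and the difference did not pass the test (adjusted p = 0.110). In intestine Cyp2b9 was not above background in any group.

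Cyp2b9 was the 1 member whose genotype difference in liver departed from that averaged over the segments, by -1.35 (SE 0.255; adjusted p = 0.00611; 2.78% of all genes called). Since only wild-type liver was above background, this difference has no measured size. For Cyp2b10 the same test gave 1.86 (SE 0.589; adjusted p = 0.134). None of 11 genes of growth hormone and sex-steroid signalling, which set sex-typical liver P450s, was called between genotypes in any tissue. From 0.893% of all genes in ileum to 2.06% in jejunum were called, so a list of 11 is too short to show an absence. The part of this signalling was not tested. At an unadjusted p under 0.05, Cyp2d10 and Cyp2d26 also read lower in Casp1-null liver, by -0.33 and -0.23. The male-specific Cyp2d9, at 10.95, 11.05 and 10.82 against 11.20, 11.06 and 11.35, narrowly did not overlap wild type, and 11.1% of all genes lay wholly lower in liver. The male-typical Cyp4a12a and Cyp4a12b overlapped wild type in liver.

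**Figure D4:**
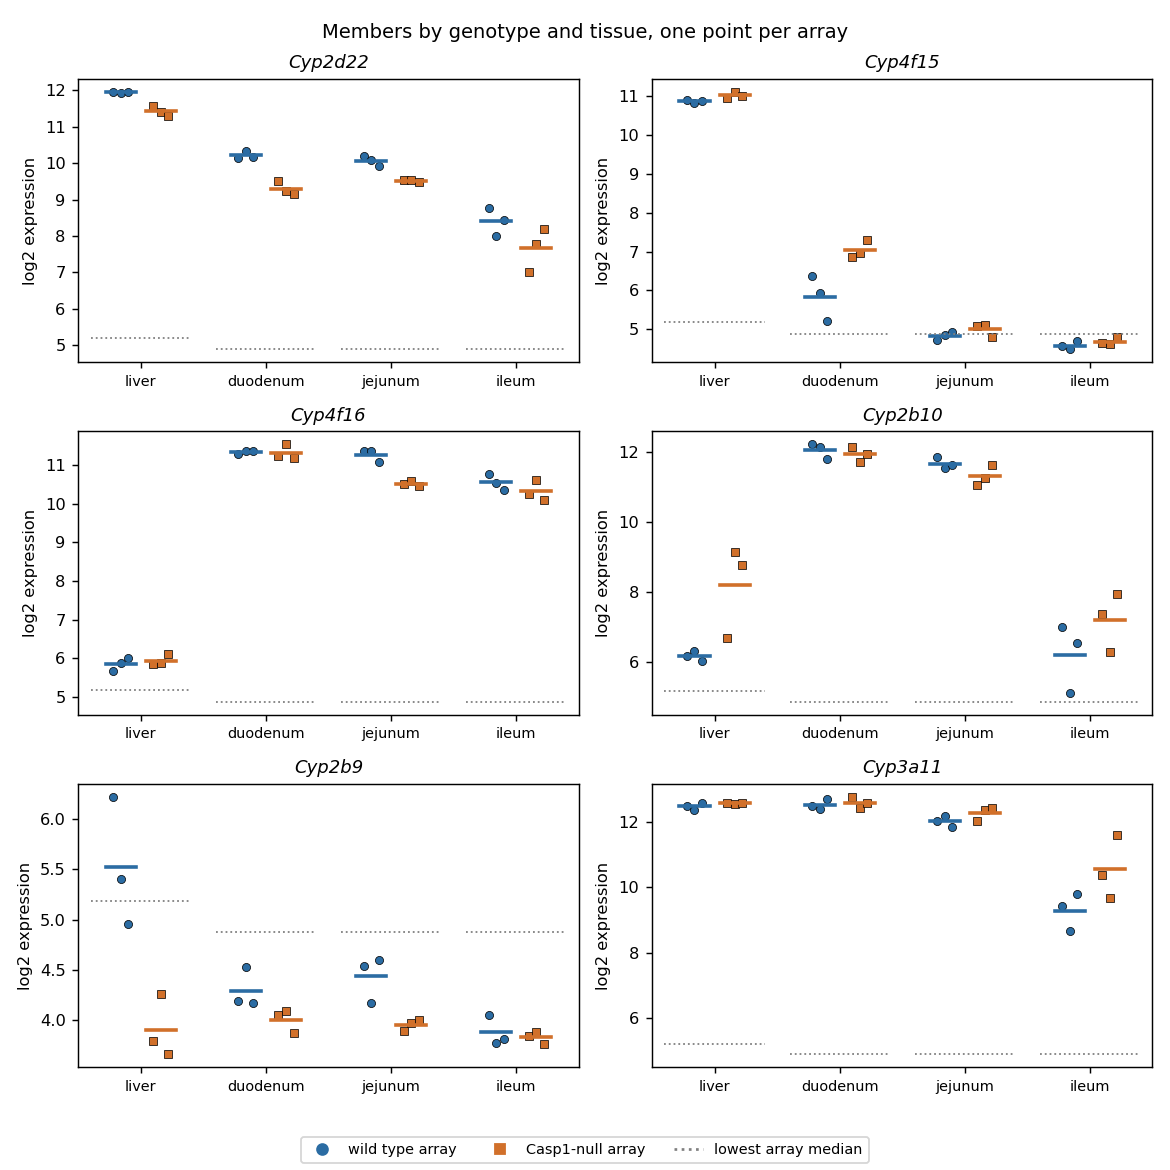
Log2 expression of 6 members on all 24 arrays by tissue (horizontal axis) and genotype, with bars at group means and dotted lines at the lowest array median of the organ. Casp1-null arrays lie below wild type for Cyp2d22 in liver, duodenum and jejunum, above it for Cyp4f15 in duodenum, and apart in opposite directions for Cyp2b10 and Cyp2b9 in liver.

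Ileal Cyp3a11 and Cyp2b10 were higher by mean in Casp1-null mice and neither passed the test. Cyp3a11 read 10.38, 9.69 and 11.59 in Casp1-null and 9.41, 8.67 and 9.78 in wild-type ileum, a difference of 1.26 (SE 0.358; adjusted p = 0.196). The groups overlapped by 1 array, and without Casp1-null array 2 the gene was called (1.70, adjusted p = 0.0284), the only 1 of 16 alternatives that called it. With 1 array left out at a time, its difference ran from 0.745 to 1.70 and the adjusted p reached 0.499. Cyp2b10 differed by 0.99 (adjusted p = 0.670). The mean of 6 proximal intestine markers moved with them, at 6.97, 6.37 and 6.39 in wild-type ileum and 7.23, 7.16 and 8.22 in Casp1-null ileum, and its part in the result was not tested. It includes Fabp1, called higher in Casp1-null ileum. Without the 3 arrays high in pancreas or stroma markers the differences were 0.43 for Cyp3a11 and 0.067 for Cyp2b10. Cyp2u1 was -0.86 in ileum (adjusted p = 0.706), and jejunal Cyp3a44 was 0.85 (adjusted p = 0.295).

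The partner lists held few genotype calls. Of 13 electron donors and haem genes, Alad, an enzyme of haem synthesis, rose in Casp1-null duodenum by 0.54 (adjusted p = 0.0353), in jejunum by 0.86 (0.00113) and in ileum by 1.01 (0.000251). Cyb5r3, which reduces cytochrome b5, fell in liver by 0.84 (adjusted p = 0.0324). Of 20 receptors and transcription factors, Ahr (0.76, adjusted p = 0.0235) and Ppargc1a (1.02, adjusted p = 0.00813) rose in jejunum and none was called elsewhere. Of 5 Cyp1 and Ah receptor targets, Nqo1, a quinone reductase, fell in jejunum by 0.80 (adjusted p = 0.0392).

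Of 18 non-P450 targets of CAR and PXR, only the conjugate exporter Abcc3 was called, lower in jejunum by -1.38 (adjusted p = 0.00579). Of 18 PPAR-alpha targets, 1 rose in duodenum, 2 in jejunum and 2 in ileum. They were Acadl, an enzyme of fatty acid oxidation, in duodenum (0.67, adjusted p = 0.0342) and jejunum (0.67, adjusted p = 0.0277), Angptl4, an inhibitor of lipoprotein lipase, in jejunum (1.37, adjusted p = 0.000192) and ileum (1.02, adjusted p = 0.00316), and Fabp1, a fatty acid carrier, in ileum (1.76, adjusted p = 0.000381). No list gene was called between genotypes in liver other than Cyb5r3.

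Cyp2e1 in ileum was set by 2 arrays. It read 9.76 on wild-type ileum array 2 and 11.03 on Casp1-null ileum array 3, and from 3.35 to 4.27 on the other 16 intestinal arrays. The same 2 arrays were high in adipocyte genes, a list written after the Cyp2e1 values were seen. Adipoq, the adiponectin gene, read 7.77 and 8.57 there against 3.18 to 3.62 on the other 16, Plin1, the lipid droplet coat of adipocytes, 7.26 and 8.06 against 3.93 to 4.54, and Fabp4 8.69 and 9.45 against 3.10 to 4.88. Retn, the resistin gene, read 9.23 and 9.67 against 3.65 to 4.13, while Lep, the leptin gene, read 5.36 on the wild-type array and 3.61 on the Casp1-null one. These are the arrays high in stroma markers, and the part of other tissue in the Cyp2e1 values was not tested. The genotype test of Cyp2e1 in ileum (0.48, SE 1.68) had no precision for that reason.

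**Figure D5:**
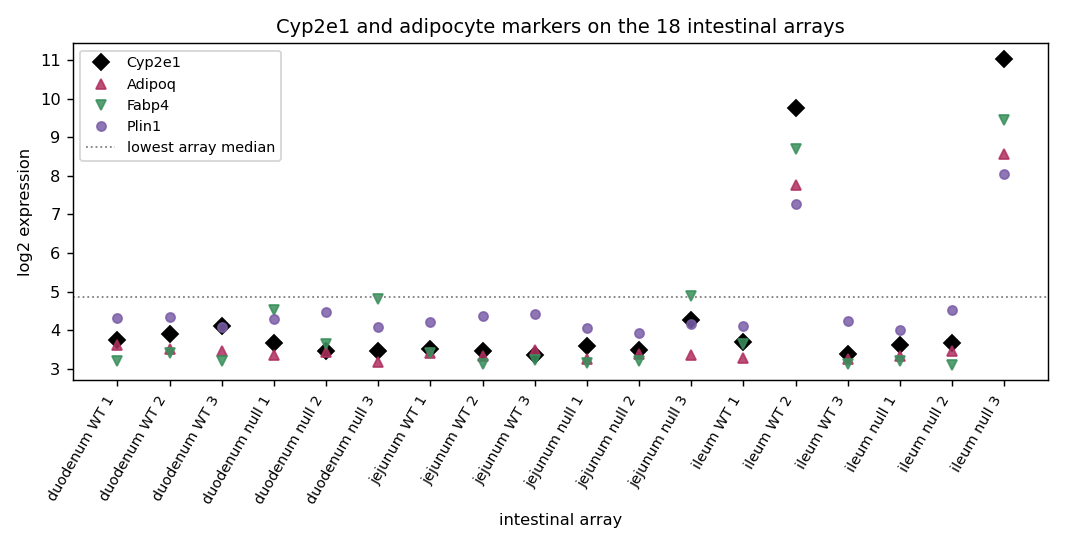
Log2 expression of Cyp2e1 (diamonds) and of the adipocyte markers Adipoq, Fabp4 and Plin1 on each of the 18 intestinal arrays (horizontal axis), with a dotted line at the lowest array median. Wild-type ileum array 2 and Casp1-null ileum array 3 are high for all 4 genes, and the other 16 arrays lie between 3.10 and 4.88.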

How the data were processed

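The deposited values were on the log2 scale, 1 per probe set and array, and came from robust multi-array averaging (RMA) by the authors, per the submitters' processing notes. Its version was not given in the sources used here. Each array was made from 100 ng RNA with an integrity number above 8.0, per the labels' protocols. The deposited log2 values were used without further scaling. No detection calls were used, and folds against a group not above background were computed against the lowest array median. Of 35556 probe sets, 21218 carried 1 symbol, 1881 several and 12457 none. The number of arrays limits the precision.

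Tests were two-sided and used limma (version 3.58.1, R version 4.3.3; lmFit and eBayes), with Benjamini-Hochberg adjustment over every probe set. Liver was fitted on 6 arrays (4 residual degrees of freedom), the segments together on 18 (12) and organ contrasts on 24 (16). The script was tested on simulated data. Also used were statmod (1.5.0), version 1.17.8 of data.table, Python 3.11.15 and matplotlib 3.10.9.

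The members and lists were chosen with earlier results of these data known. Members named with array values were those called by genotype or interaction, the 3 largest uncalled genotype differences per tissue and the 5 highest wild-type means per tissue. Cyp2j6, Cyp2j9, Cyp2r1, Cyp4b1, Cyp4f40, Cyp2s1, Cyp2d9, Cyp2d10, Cyp2d13, Cyp4a12a, Cyp4a12b and other members named in the wild-type comparisons were chosen after their values were seen. Alternatives were another variance trend, array weights, quantile normalization, median centring, a filter at the median, averaged probe sets, the replicate number as a block and leaving out arrays.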

Additional observations from a re-analysis of the deposited data

Results flagged for a closer look

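The Cyp2b9 genotype difference differed between liver and the mean of the intestinal segments by -1.35 on the log2 scale (limma interaction, adjusted p = 0.00611), with wild-type liver the only group above background. Both other cases are pairs of tissues in which the Casp1-null arrays lay wholly on opposite sides of wild type, and the difference between the tissues was not tested for these pairs. Cyp2d26 was lower in all 3 Casp1-null liver arrays (-0.23) and higher in all 3 Casp1-null jejunal arrays (0.36). Cyp4b1 was lower in all 3 Casp1-null liver arrays (-0.35) and higher in all 3 Casp1-null jejunal arrays (0.44). None of these 4 tissue differences passed the test on its own. Every pair of tissues was searched for this pattern, and its share among all genes was not counted. Of all genes, 11.1% lay wholly lower in Casp1-null liver and 10.3% wholly higher in Casp1-null jejunum. The pattern in these members is therefore not a result about the family.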

How the results depend on the processing

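Of 1605 alternative values of 98 single-gene results, 1494 kept their direction and side of the threshold, 103 lost the call, 7 gained it and 1 reversed, Cyp3a16 between wild-type liver and intestine (-0.041 with array medians set equal, not above background). Counts of members called moved as follows. The cause was not tested for moves other than those of the filter and of averaged probe sets. The filter at the median took out members of low mean, which were not retested. Among them were Cyp2a12 in duodenum, Cyp2a5 in jejunum, Cyp4f18 in liver and Cyp2b9 for liver against intestine by genotype. With this filter the counts were 1 in duodenum, 1 in jejunum, 0 in liver, 0 for liver against intestine by genotype and 16 from duodenum to ileum. With segments fitted on their own 6 arrays they were 1 in duodenum and 0 in jejunum. Array weights gave 1 in ileum, 3 for liver against intestine by genotype and 10 from duodenum to jejunum. Without the 3 arrays high in pancreas or stroma markers, an alternative added after seeing the data, they were 1, 3 and 16 in ileum, for liver against intestine by genotype and from duodenum to ileum. Median centring gave 1 in jejunum, and averaged probe sets 3 in liver. Each member had 1 probe set of its own, so averaging left its values unchanged. Only the set of features fitted and adjusted with it differed. The labels do not say whether a replicate number marks 1 mouse. Same-numbered segments correlated from -0.0978 to 0.173 in their deviations, which cannot decide it, since differently numbered segments were not compared. The replicate block gave 1 in jejunum and 0 in liver. Leaving out 1 array gave 1 to 2 in duodenum, 0 to 1 in ileum, 0 to 1 in jejunum, 0 to 2 in liver, 0 to 1 between segments, 1 to 4 for liver against intestine by genotype, 20 to 25 from duodenum to ileum, 9 to 13 from jejunum to ileum, 4 to 7 from duodenum to jejunum and 33 to 38 for wild-type liver against intestine. Signal close to background limits 19 members in every group.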
